A study of Saccharomyces cerevisiae with 24 samples.

Results

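Sub-nucleosomal MNase-seq sequences the short DNA fragments that micrococcal nuclease leaves undigested under transcription factors and other proteins that cover less DNA than a nucleosome does. The footprints described here are those of the control strain as its culture moved from mid and late S phase to the time after bulk replication. They are the 5775 peaks, of 58467 in the whole data set, that held 240 or more reads over the 24 libraries, and they are called the deep peaks below. The yeast (Saccharomyces cerevisiae, W303 background) was MATa and carried rad5-535 and can1-100, the marker alleles ade2-1, trp1-1 and ura3-1, and, further, his3-11, 15 and leu2-3, 112. It lacked SML1, the inhibitor of ribonucleotide reductase, through sml1_delta::URA3. The culture was grown in raffinose, arrested in G1 with the pheromone alpha factor, given galactose while arrested and released into galactose medium. Libraries at 25, 30 and 35 min after release formed the earlier window, and libraries at 45, 50 and 60 min formed the later window. The G1 library and the libraries at 5, 10, 15, 20 and 40 min gave the course around them. A second strain, SSDDCS, also lacked SML1, with another marker, and carried Sld7 and Cdc45, SLD3-A and Dbf4-A, and Sld2 and Dpb11 under the galactose-inducible PGAL1-10 promoter, integrated at leu2, his3 and trp1. It was induced and sampled in the same way, so galactose was shared by both strains.

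Each time point of a strain was 1 library from 1 culture. The 3 libraries of a window therefore stand in for replicates, and a p-value compares the difference between the windows with the spread inside them, which also holds real change with time. Values are normalised reads, the count of a library divided by its total outside the ribosomal DNA (rDNA) array on chromosome XII and scaled to the mean total of 346176 reads. The 6 control libraries held 484807 to 522283 reads, of which 27.7% to 32.7% lay in the rDNA array. A deep peak held a median of 15.0 reads per library, so single values carry a large counting error. In a bulk culture, a weaker footprint in every cell and its loss from some cells cannot be told apart. Outside the array, the 403 peaks just inside the minimum (240 to under 250 reads) held 9.90 and 10.2 normalised reads per peak in the earlier and later window, and the 483 just outside it (230 to under 240 reads) 9.67 and 9.71. No peak lay inside SML1 in either strain, so its deletion could not be checked, while the 4 peaks inside URA3 held 462 reads in the 12 control libraries and 199 in the 12 SSDDCS libraries.

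Replication passes through every footprint once per cell cycle. The fork displaces bound factors and nucleosomes, new histones are deposited behind it, and transcription factors compete with nucleosomes for the new DNA. General regulatory factors such as Reb1, Abf1 and Rap1 bind short motifs in the nucleosome-depleted regions upstream of yeast genes, and Rap1 also binds the TG-rich repeats at chromosome ends. Groups of genes are switched on in turn in the cycle, among them the histone genes in S phase, the CLB2 cluster in G2 and M phase, and the genes of the M to G1 transition.

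The sequences of the peaks on which the account turns are given first. Each is the 101 bp around the peak position on the plus strand of the RefSeq genome of build R64, with the motifs searched in capitals. The peak between XBP1 and SGA1 is shown because it had the smallest p-value. The capitals mark the SCB motif CGCGAAA on the other strand overlapping the Rsc3 motif CGCGC, and AGGGG, the motif of the stress factors Msn2 and Msn4, at 2 places. The peak between GCY1 and RIO1 is shown for its Gal4 motif, which the capitals mark. The peak facing DAP2 held none of the 24 motifs, but had an inverted repeat with arms of 15 bp around a spacer of 3 bp (left arm tccttcaataccgcc), the longest in any of the 22 peak sequences examined.
XBP1-SGA1, chrIX:177504-177604: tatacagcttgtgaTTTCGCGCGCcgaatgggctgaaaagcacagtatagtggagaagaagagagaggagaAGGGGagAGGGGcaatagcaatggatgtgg
GCY1-RIO1, chrXV:550723-550823: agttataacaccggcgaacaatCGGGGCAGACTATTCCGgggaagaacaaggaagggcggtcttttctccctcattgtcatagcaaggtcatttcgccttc
DAP2, chrVIII:167536-167636: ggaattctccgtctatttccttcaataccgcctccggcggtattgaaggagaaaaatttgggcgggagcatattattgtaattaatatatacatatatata

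The next sequences belong to the cell cycle genes and to a chromosome end. The CLB1 peak is the only one of them called higher, and its capitals mark CCAAT, the motif of the Hap complex. The peak between HTB2 and HTA2 fell most and held none of the motifs. The peak at the right end of chromosome VIII lies in the telomeric TG repeats, and the capitals mark the Rap1 motif.
CLB1, chrVII:703195-703295: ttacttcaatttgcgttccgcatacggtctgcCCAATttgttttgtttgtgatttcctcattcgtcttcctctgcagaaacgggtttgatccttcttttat
HTB2-HTA2, chrII:236231-236331: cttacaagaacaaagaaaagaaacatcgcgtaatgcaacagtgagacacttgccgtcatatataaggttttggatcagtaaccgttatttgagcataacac
Right end, chrVIII:562465-562565: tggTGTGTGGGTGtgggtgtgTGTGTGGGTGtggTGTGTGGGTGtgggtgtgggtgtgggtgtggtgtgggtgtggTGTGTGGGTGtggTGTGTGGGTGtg

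The label of the windows was first checked with peaks that were not deep, through reads at late-replicating chromosome ends as a measure of copy number. Reads within 50 kb of the ends over reads within 50 kb of centromeres stood below the G1 ratio by 0.22, 0.11 and 0.02 on the log2 scale at 25, 30 and 35 min. At 45, 50 and 60 min the same ratio stood above G1 by 0.07, 0.04 and 0.08, with a counting error of about ± 0.03. The windows did not overlap, and their means differed by 0.18 (exact permutation test, two-sided, p = 0.1, the smallest that 3 against 3 libraries allow). The ends were thus still under-represented at 25 and 30 min and had reached the G1 ratio, within counting error, at 35 min. The later values lay above the G1 ratio by more than the counting error, and the cause of this was not tested.

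Deep peaks as a whole were weakest in the earlier window and stronger in the later one. Their share of all reads outside the rDNA array was 34.5% in G1, 37.6% at 5 min, 29.0% at 20 min and 25.6%, 25.6% and 26.0% at 25, 30 and 35 min. It was 26.9% at 40 min, 28.0% at 45 min, 33.4% at 50 min and 32.5% at 60 min. At 35 and 40 min the ratio of ends over centromeres was -0.02 and 0.05 (log2) against G1, while the share was still near its lowest. All 3 later libraries lay above all 3 earlier ones, and the 45 min library lay nearer to the earlier window than to the other two. The mean was 25.7% ± 0.259 (SD, n = 3) in the earlier window and 31.3% ± 2.91 (SD, n = 3) in the later one, a difference of 5.60 percentage points (exact permutation test, two-sided, p = 0.1, the smallest possible). The SSDDCS strain went from 25.5% ± 0.849 to 29.3% ± 1.17 (SD, n = 3 each).

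**Figure D1:**
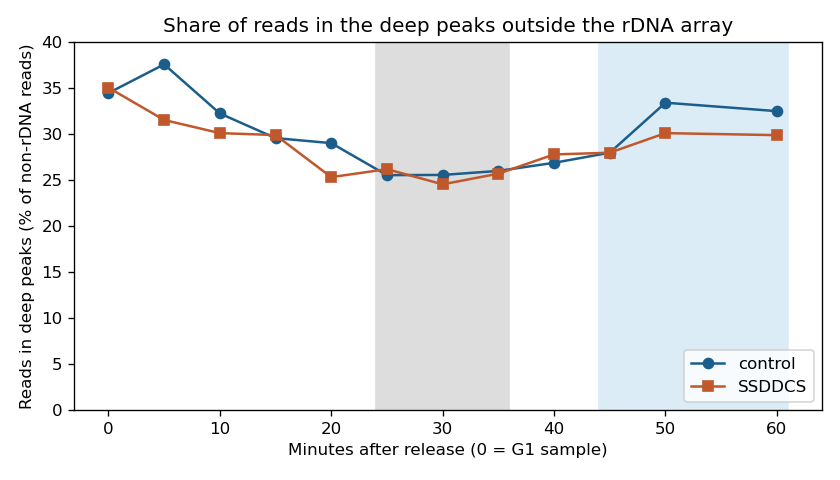
Share of reads outside the rDNA array that lay in the deep peaks (y axis, percent) against minutes after release (x axis, G1 at 0), 1 point per library, for the control and SSDDCS strains. The grey band marks the earlier window and the blue band the later one; the control share was 25.6% to 26.0% in the first and 28.0% to 33.4% in the second.

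Peak by peak, the rise was broad. The median log2 change from the earlier to the later window was 0.26, and 72.5% of the 5775 peaks had a positive value. edgeR's quasi-likelihood test with Benjamini-Hochberg adjustment called 288 peaks higher (4.99% of those tested) and 8 lower (0.139%) at an adjusted p under 0.05. This shift of 0.26 was shared by most deep peaks, and a scaling to the reads in the deep peaks takes it away: 38 peaks (0.658%) were then called higher and 50 (0.866%) lower. The 12 higher peaks with the smallest p-values and all 8 lower peaks passed the threshold under both scalings. The number of calls also depended on the test, with 155 higher and 3 lower in limma-voom and 1 and 0 in DESeq2 with the same totals. It depended on single libraries as well. It was 647 higher and 19 lower without the 45 min library, 119 and 6 without 35 min, 57 and 3 without 30 min, 55 and 2 without 50 min, 48 and 4 without 60 min, and 33 and 0 without 25 min.

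**Figure D2:**
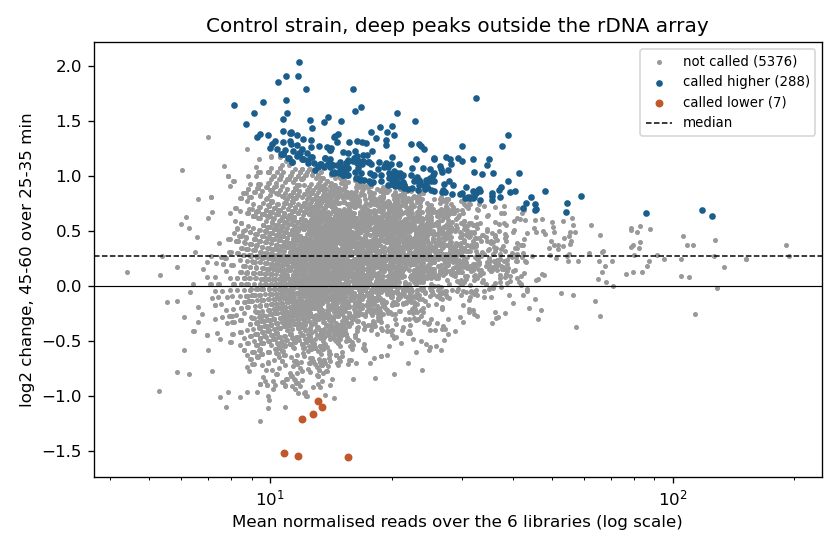
The log2 change of each deep peak outside the rDNA array from 25-35 to 45-60 min (y axis) against its mean normalised reads over the 6 control libraries (x axis, log scale). Blue points are the 288 peaks called higher, orange points the called lower peaks outside the array, grey points the rest, and the dashed line is the median.

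The 2 windows chose the peaks called higher, and the G1 reads entered the minimum of 240 reads, so their levels are a description. These 288 peaks held a mean of 28.2 normalised reads per peak in G1, 14.1 in the earlier window and 29.0 in the later one. Over all deep peaks outside the array the summed level stood at -0.42 (log2) against G1 in the earlier window and at -0.14 in the later one, so the later level of the whole was below G1. With the rDNA array kept in the totals the later level was 0.012, at G1. The 8 peaks called lower held 275.8, 280.7 and 176.1 normalised reads per peak in G1, the earlier and the later window, values set by 1 peak in the rDNA array.

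Footprints in promoters changed most. Of 3777 peaks outside coding sequence within 1000 bp of a start codon they faced, 244 (6.46%) were called higher and 2 lower, with a median log2 change of 0.36. Of 1302 peaks inside open reading frames (ORFs), 23 (1.77%) were called higher and 5 lower, with a median of 0.02. The 592 other intergenic peaks had 21 calls higher (3.55%) and 0 lower, with a median of 0.20. Scaled to the deep peaks, the calls were 29 higher and 15 lower in promoters, 3 and 17 in ORFs, and 6 and 0 elsewhere between genes. A promoter peak held a mean of 22.8 normalised reads in G1, 16 in the earlier window and 20.4 in the later one, while an ORF peak held 15.8, 14.5 and 15.0. Against G1 the summed promoter level was -0.52 (log2, 95% counting interval -0.53 to -0.50) in the earlier and -0.16 (-0.17 to -0.15) in the later window, and that of ORF peaks -0.13 and -0.07.

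The promoter level over the ORF level, taken within each library, does not depend on the scaling. This log2 ratio was 0.53 in G1, then 0.12, 0.12 and 0.20 at 25, 30 and 35 min, and 0.34, 0.51 and 0.46 at 45, 50 and 60 min. The windows did not overlap, and the difference was 0.30 (exact permutation test, two-sided, p = 0.1, the smallest possible). It was the first of 8 such ratios between groups of peaks, and the Benjamini-Hochberg adjusted p was 0.114 for 7 of them and 0.8 for the Rap1-motif peaks near chromosome ends over the other peaks there. In the SSDDCS libraries the ratio rose by 0.23 (exact permutation p = 0.1). A split at the quartiles of the peaks' reads was made after the data were seen and does not equalise depth within its groups. Promoter peaks of the deepest group had a median change of 0.37 (1070 peaks) and ORF peaks of 0.22 (228 peaks), and in the shallowest group 0.29 (717 peaks) and -0.12 (547 peaks).

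The places described next had smaller medians than promoters, and their calls stand beside 4.99% of all deep peaks called higher and 0.139% lower. The 295 peaks within 500 bp of an annotated replication origin had 6 calls higher (2.03%) and 0 lower, and a median of 0.20. The 722 peaks within 30 kb of a chromosome end had 26 higher (3.6%) and 1 lower, with a median of 0.18. That of the 4016 peaks at 100 kb or more from an end was 0.29. The read ratio of ends over centromeres rose between the windows, as given above. Its part in the level of the peaks near the ends was not tested. The 243 peaks within 200 bp of tRNA genes had 1 call in each direction (0.412% higher) and a median of 0.09. The 403 peaks in long terminal repeats and transposons had 1 higher (0.248%), 0 lower and a median of 0.05. Within a library, the tRNA level over the promoter level fell by 0.28 on the log2 scale between the windows, with means of -0.09 and -0.37 (exact permutation p = 0.1). In SSDDCS the difference was -0.08 (exact permutation p = 0.2). The tRNA peaks had a median change of 0.17 in that strain, against 0.18 over all deep peaks. The 104 deep peaks in the rDNA array had a median of -0.10, with 0 called higher and 1 lower.

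**Figure D3:**
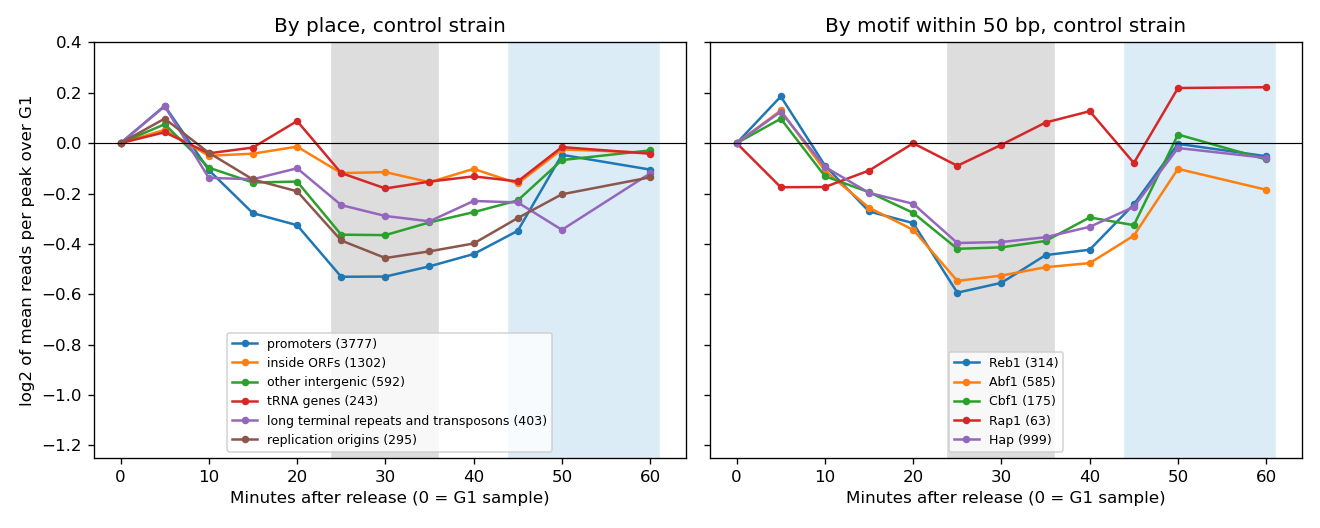
Mean normalised reads per peak over the G1 level (y axis, log2) against minutes after release (x axis, G1 at 0), 1 control library per point, for peaks by place (left) and by motif within 50 bp (right), with numbers of peaks in brackets. Promoter peaks stood at -0.52 on average in the earlier window (grey) and -0.16 in the later one (blue), ORF and tRNA peaks moved less, and peaks with the Rap1 motif stood at -0.00 and 0.13.

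The general regulatory factors are described one by one, and their groups of peaks were not compared with each other by a test. Motifs were searched within 50 bp of the peak position on both strands, which describes the sequence and not a bound factor. The Reb1 motif TTACCCG was near 314 deep peaks outside the rDNA array (5.54%, against 0.953% of all peaks), of which 25 (7.96%) were called higher and 0 lower, with a median of 0.44. Their summed level against G1 was -0.53 in the earlier and -0.10 in the later window. The Abf1 motif was near 585 peaks (10.3%, against 1.99% of all peaks), of which 16 (2.74%) were called higher and 0 lower, with a median of 0.34 and levels of -0.52 and -0.21 against G1. Scaled to the deep peaks, 1 Reb1 and 3 Abf1 peaks were called higher and 0 lower, against 4.99% of all deep peaks called higher before and 0.658% after that scaling. The 1933 peaks with none of the 24 motifs had a median of 0.20, with 83 calls higher (4.29%) and 6 lower. Relative to those, within each library, the Reb1 level rose by 0.21 (log2, from 0.35 ± 0.0873 to 0.55 ± 0.0353, SD, n = 3, exact permutation p = 0.1), and the Abf1 level by 0.08 (from 0.27 ± 0.0384 to 0.34 ± 0.0523, exact permutation p = 0.1). In SSDDCS these rises were 0.155 (exact permutation p = 0.1) and 0.03 (p = 0.5). In promoters alone, the median was 0.47 for 268 Reb1 peaks, of which 7.84% were called higher. It was 0.36 for 478 Abf1 peaks, with 3.14% called higher, against 0.36 and 6.46% for all promoter peaks.

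The Rap1 motif was near 63 deep peaks (1.11%, against 0.140% of all peaks), of which 0 were called in either direction, and their summed level against G1 was -0.00 in the earlier and 0.13 in the later window. A split by place, made after the data were seen, separated them. The 22 peaks within 30 kb of chromosome ends stood above G1 by 0.31 (95% counting interval 0.22 to 0.41) in the earlier and by 0.50 (0.40 to 0.59) in the later window. Over the other 700 peaks near the ends, within each library, their log2 level was 1.77 in the earlier and 1.73 in the later window (difference -0.04, exact permutation p = 0.8). Reads in such repeats cannot be assigned to 1 chromosome end with certainty. The 32 peaks elsewhere stood at -0.39 and -0.27.

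The 9 Rap1-motif peaks facing genes of cytoplasmic ribosomal proteins went against the general rise. Their median change was -0.32, and 3 of the 9 had a positive value. Over the other 157 peaks facing ribosomal protein genes, taken within each library, their log2 level was 0.65, 0.77 and 0.66 at 25, 30 and 35 min and 0.29, 0.18 and 0.22 at 45, 50 and 60 min. The windows did not overlap (difference -0.46, exact permutation p = 0.1). In the SSDDCS strain the difference was -0.20 with exact permutation p = 0.2. None of the 9 passed the test on its own. The peak facing RPL20B, a protein of the large subunit, held 32.1, 28.1 and 32.5 normalised reads in the earlier and 24.7, 20.6 and 25.4 in the later window (log2 -0.39, adjusted p = 0.401).

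Calls higher at other motifs stand beside 4.99% of all deep peaks and 6.46% of promoter peaks. The Msn2/4 motif AGGGG was near 676 deep peaks (11.9%, against 7.32% of all peaks), with 56 (8.28%) called higher, 1 lower and a median of 0.33. The Rsc3 motif CGCGC was near 720 peaks (12.7%, against 3.29% of all peaks), with 45 (6.25%) higher, 0 lower and a median of 0.36. The Mig1 motif CCCCGC was near 186 peaks (3.28%, against 0.946% of all peaks), with 13 (6.99%) higher, 0 lower and a median of 0.39. The PAC motif GCGATGAG, found upstream of ribosome biogenesis genes, was near 72 peaks (1.27%, against 0.371% of all peaks), with 5 (6.94%) higher and a median of 0.39. The CCAAT motif was near 999 peaks (17.6%, against 24.1% of all peaks), with 58 (5.81%) higher and a median of 0.24. Scaled to the deep peaks, calls higher and lower were 11 and 2 for Msn2/4, 7 and 0 for Rsc3, and 3 and 0 for Mig1. They were 2 and 0 for PAC and 9 and 5 for CCAAT, against 0.658% and 0.866% of all deep peaks.

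XBP1 encodes a stress-induced repressor that is related in its DNA-binding domain to Swi4 and Mbp1, and SGA1 a glucoamylase of sporulation. The footprint between them, 304 bp from the XBP1 and 450 bp from the SGA1 start codon, was the clearest single change. It held 43.7 normalised reads in G1, 15.0, 12.6 and 17.6 at 25, 30 and 35 min, 16.3 at 40 min, and 35.5, 54.4 and 59.8 at 45, 50 and 60 min. The windows did not overlap and the rise was 1.71 ± 0.27 on the log2 scale (SE, edgeR adjusted p = 2.13e-06). The same windows chose this peak and the other called peaks below, so their separation is a description and no further support. It was called in all 23 alternative analyses. In the SSDDCS strain the same peak went from 24.5, 22.3 and 27.5 to 28.1, 49.7 and 49.9 (0.78, adjusted p = 0.0432).

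**Figure D4:**
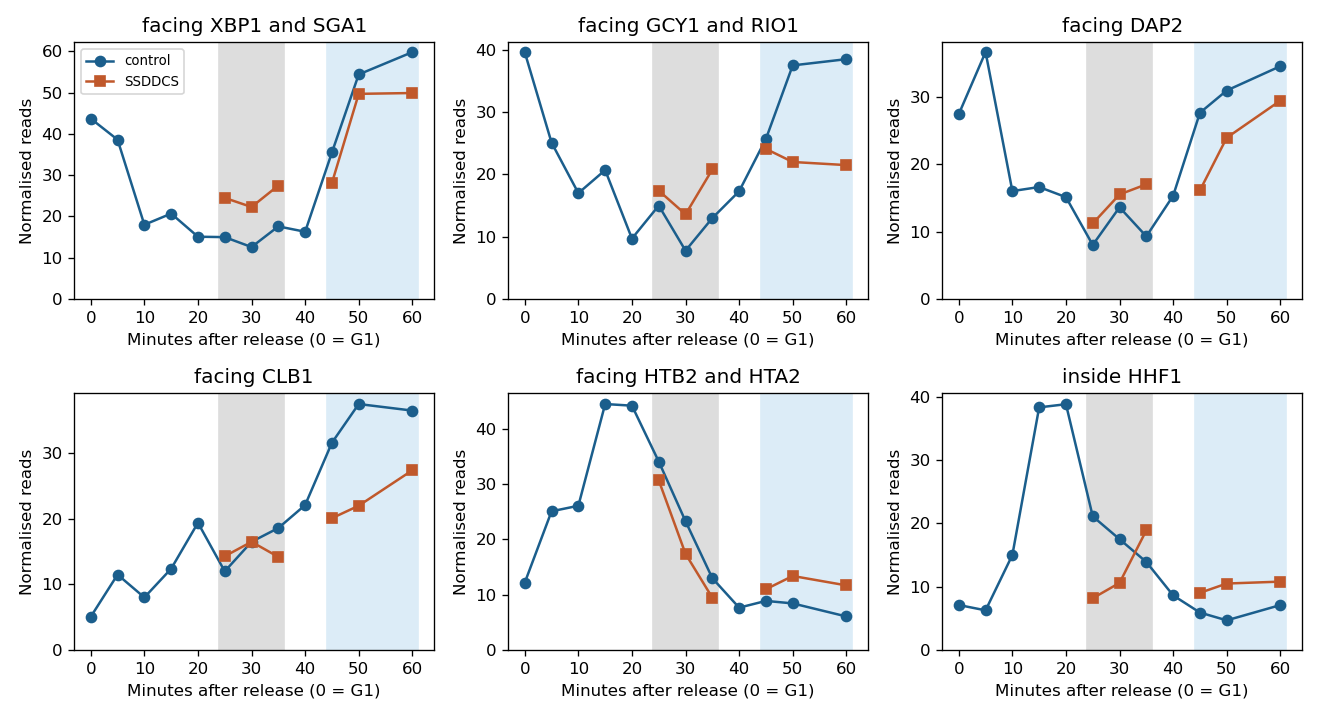
Normalised reads (y axis, linear, from 0) in 6 peaks against minutes after release (x axis, G1 at 0), 1 library per point, for the control strain (blue circles, all 12 libraries) and the SSDDCS strain (orange squares, the 2 windows). The XBP1-SGA1 peak rose from 12.6 to 17.6 in the grey window to 35.5 to 59.8 in the blue one, and the HTB2-HTA2 peak fell from 13.0 to 34.1 to 6.08 to 8.89.

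GCY1, a glycerol dehydrogenase gene, is a target of Gal4, and RIO1 encodes a protein kinase of ribosome biogenesis. The peak at the Gal4 motif between them held 39.6 normalised reads in G1, 15.0, 7.77 and 13.0 in the earlier window and 25.7, 37.5 and 38.5 in the later one. All later libraries lay above all earlier ones (log2 1.5 ± 0.30, SE, adjusted p = 0.000535). In SSDDCS, with 17.4, 13.6 and 20.8 against 24.1, 22.0 and 21.5, it did not pass the test (0.38, adjusted p = 0.526). It was the single call (5.26%, against 6.46% of promoter peaks) among 19 peaks facing galactose genes, whose median was 0.27. The peak facing GAL7, an enzyme of galactose breakdown, with the Gal4 motif, held 16, 11.7 and 17.6, then 7.9, 17.8 and 10.1, and its windows overlapped (-0.33, adjusted p = 0.597).

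The inverted-repeat peak lay 152 bp from DAP2, the gene of a vacuolar dipeptidyl aminopeptidase. It held 27.4 normalised reads in G1, 8.02, 13.6 and 9.29 in the earlier and 27.6, 30.9 and 34.5 in the later window (log2 1.58 ± 0.31, SE, adjusted p = 0.00041). SSDDCS values of 11.2, 15.5 and 17.0 against 16.1, 23.9 and 29.4 overlapped between the windows (0.65, adjusted p = 0.232). The peak facing NRG2, a glucose-regulated repressor gene, had an AGGGG motif and the largest log2 change of the 12 peaks, 2.04 ± 0.40 (SE, adjusted p = 0.000371). Its counts were low, at 6.02, 5.83 and 1.86 normalised reads and then 11.8, 19.7 and 25.3. The peak 536 bp from TIM23, a subunit of the mitochondrial protein import channel, went from 7.02, 8.74 and 5.57 to 16.8, 23.4 and 34.5 (1.79, adjusted p = 0.000371).

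Of the other 7 among the 12 peaks with the smallest p-values, 3 faced genes, 3 lay between genes with no facing start codon in reach and 1 lay inside an ORF. That peak, inside the uncharacterised YBL044W, held 22.1, 25.2 and 17.6 against 29.6, 71.2 and 67.9, so its 45 min library lay close to the earlier window (log2 1.38, adjusted p = 0.000117). The peak facing RPS3, a small-subunit protein, rose by 1.63 (adjusted p = 0.000621). The one between RSC9, a subunit of the RSC remodeller, and MSC1 rose by 1.92 (adjusted p = 0.000621). The one facing FPR1, the rapamycin-binding isomerase, rose by 1.46 (adjusted p = 0.00115). The peak at 20988 on chromosome XII held 67.0 normalised reads in G1, 20.1, 26.2 and 19.5 in the earlier and 34.6, 49.7 and 76.0 in the later window (1.28, adjusted p = 0.00041). The windows overlapped in none of these 12 peaks, which the same windows had chosen, so this is a description. The peaks facing RPS3 and RSC9 had the smallest gaps between the windows in reads, with 14 against 15.9 and 8.02 against 11.8.

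Histone promoters held the footprint with the largest fall. HTA2 and HTB2 encode histones H2A and H2B and are transcribed apart from a shared promoter. The peak 211 bp from HTB2 and 489 bp from HTA2 held 12.2 normalised reads in G1, 25.1 at 5 min, 44.5 at 15 min and 44.2 at 20 min. It then went through 34.1, 23.3 and 13.0 at 25, 30 and 35 min and 7.67 at 40 min to 8.89, 8.44 and 6.08 at 45, 50 and 60 min. The windows did not overlap (log2 -1.56 ± 0.34, SE, adjusted p = 0.00186), and the values also fell within the earlier window. In SSDDCS, 30.7, 17.4 and 9.47 were followed by 11.0, 13.4 and 11.7, so the windows overlapped (-0.65, adjusted p = 0.299).

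The peaks of that promoter were not compared with each other by a test. The peak 139 bp from HTA2 held 11.0, 14.6 and 13.9, then 8.89, 9.37 and 15.2 (-0.25, adjusted p = 0.707). The peak 339 bp from HTA2 and 361 bp from HTB2, with the MCB motif ACGCGT, held 14, 13.6 and 11.1, then 17.8, 19.7 and 20.3 (0.57 ± 0.32, SE, adjusted p = 0.272). The peak inside HHF1, a histone H4 gene, held 7.11 normalised reads in G1, 38.3 at 15 min and 38.8 at 20 min. It held 21.1, 17.5 and 13.9 in the earlier and 5.92, 4.69 and 7.10 in the later window (-1.55 ± 0.38, SE, adjusted p = 0.00614). At the other H2A and H2B pair, the peak 113 bp from HTB1 held 4.06 in G1, 18.6 at 15 min, 15.0, 11.7 and 7.43 in the earlier and 7.90, 5.62 and 8.11 in the later window (-0.64, adjusted p = 0.347), and its windows overlapped. Over the 14 deep peaks facing histone genes, 0 were called higher and 1 lower, and the median was 0.41.

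CLB1 encodes a mitotic B-type cyclin of the CLB2 cluster. The peak 391 bp from its start codon held 5.08 normalised reads in G1, 12, 16.5 and 18.6 in the earlier window, 22.1 at 40 min and 31.6, 37.5 and 36.5 in the later one. The windows did not overlap, and the level in G1 was the lowest of all 12 control libraries (log2 1.15 ± 0.29, SE, adjusted p = 0.00687). Scaled to the deep peaks the call was lost (0.87, adjusted p = 0.0614). The SSDDCS values were 14.3, 16.5 and 14.2, then 20.1, 22.0 and 27.4 (0.62, adjusted p = 0.255). Of 20 peaks facing G2/M genes, 2 were called higher (10%, against 6.46% of promoter peaks) and 0 lower with a median of 0.30. The other was that between CYK3, a cytokinesis gene, and HEM25, which went from 6.02, 4.85 and 6.50 to 9.87, 15.9 and 17.2 (1.29, adjusted p = 0.0378). Neither was called when scaled to the deep peaks.

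Genes of the M to G1 transition had 30 deep peaks with a median of 0.37. Of these, 5 were called higher (16.7%, against 6.46% of promoter peaks and 4.99% of all deep peaks) and 0 lower. The 5 include the CYK3 peak, and 1 of them was called when scaled to the deep peaks. The peak facing PIR1, a cell wall glycoprotein, held 78.2 normalised reads in G1, 12, 15.5 and 13.0 in the earlier and 21.7, 36.6 and 41.6 in the later window (log2 1.29, adjusted p = 0.00306), so it stayed below G1. The peak facing DSE3, a daughter-cell protein gene, rose by 1.22 (adjusted p = 0.0171). The 40 peaks facing G1/S genes had a median of 0.12 and summed levels of -0.33 and -0.24 against G1. Of them, 1 was called higher (2.5%, against 6.46% of promoter peaks) and 0 lower, with 0 calls when scaled to the deep peaks. That peak faced POL2, the catalytic subunit of DNA polymerase epsilon, and held an MCB motif. It went from 9.02, 7.77 and 3.71 to 14.8, 16.9 and 16.2 (1.23, adjusted p = 0.0339). The peak 326 bp from CLN2, a G1 cyclin, had values of 15.0, 15.5 and 11.1 and then 7.90, 5.62 and 9.13, which did not overlap but did not pass the test (-0.87, adjusted p = 0.153).

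The pheromone response genes, which alpha factor induces in the arrest, had 19 deep peaks with a median of 0.42 in the control and 0.17 in SSDDCS. Of these, 3 were called higher (15.8%, against 6.46% of promoter peaks and 4.99% of all deep peaks) and 0 lower. None of the 3 was called when scaled to the deep peaks. Their summed level was -0.66 against G1 in the earlier and -0.22 in the later window. BAR1 encodes the protease that degrades alpha factor, and the peak facing it, with the Ste12 motif TGAAACA, held 34.5 normalised reads in G1. It held 12, 15.5 and 16.7 in the earlier and 19.7, 30.9 and 39.5 in the later window (log2 1.01, adjusted p = 0.0244), and SSDDCS gave 0.97 (adjusted p = 0.0766). FUS2 acts in cell fusion, and the peak facing it went from 25.1, 34.0 and 25.1 to 39.5, 60.0 and 52.7 (0.86, adjusted p = 0.0217). The third call was a peak facing STE2, the alpha factor receptor gene, at 11.0, 2.91 and 9.29 and then 10.9, 19.7 and 22.3 (1.18, adjusted p = 0.031), where the windows overlapped.

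The 166 peaks facing ribosomal protein genes had 7 calls higher (4.22%, against 6.46% of promoter peaks) and 0 lower with a median of 0.26. Scaled to the deep peaks, 1 was called higher and 2 lower. The 31 peaks facing glycolytic genes had 2 higher (6.45%, 0 when so scaled) and 0 lower with a median of 0.39, and their summed level in the later window was close to that in G1 (0.00). The peak facing HXK1, a hexokinase gene, went from 20.1, 19.4 and 24.1 to 33.6, 34.7 and 51.7 (0.90, adjusted p = 0.0275). The peak facing PFK2, a phosphofructokinase subunit, went from 12, 9.71 and 8.36 to 16.8, 26.2 and 24.3 (1.16, adjusted p = 0.0188).

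**Figure D5:**
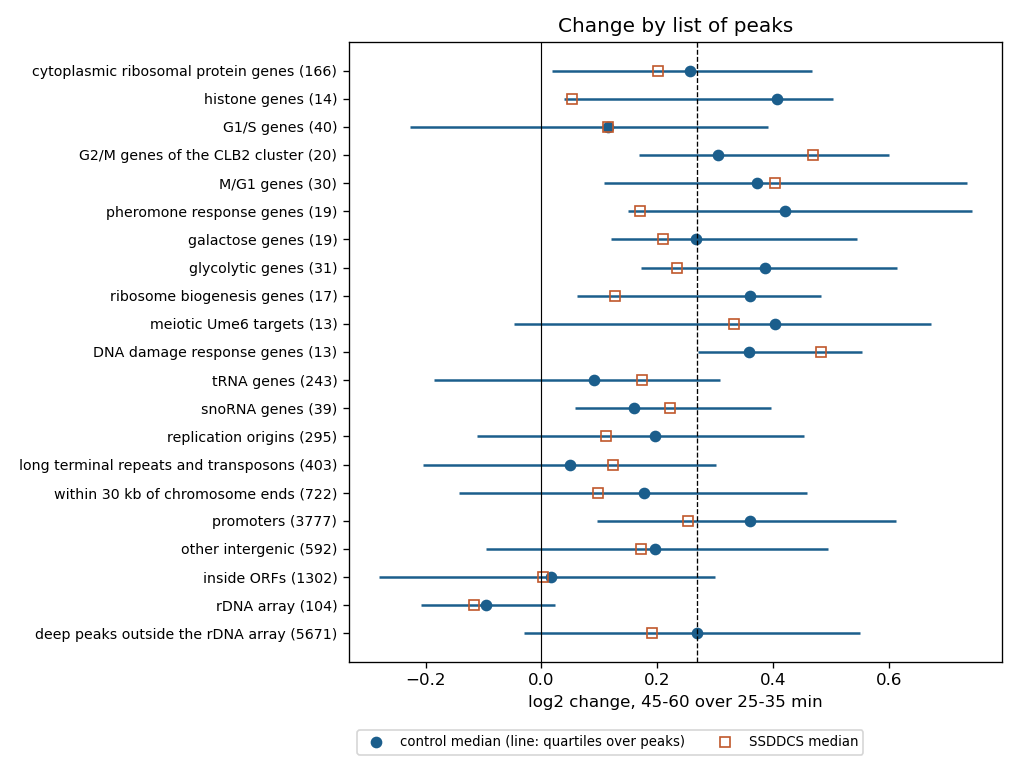
Median log2 change of the deep peaks from 25-35 to 45-60 min (x axis) in each list of peaks (y axis, numbers of peaks in brackets), for the control (blue, with the quartiles over peaks as a line) and SSDDCS (orange). The dashed line is the control median of the deep peaks outside the rDNA array, 0.27; promoter peaks had a median of 0.36 and ORF peaks of 0.02.

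The remaining peaks called lower were weak or repeated. The rDNA peak at 467956 on chromosome XII held 2150, 2520 and 1680 normalised reads and then 1400, 1150 and 1520 (log2 -0.64, adjusted p = 0.0103). The peak inside YPR204W, a helicase gene of a subtelomeric repeat, held 1.02 in G1, 16, 14.6 and 17.6 in the earlier and 3.95, 5.62 and 7.10 in the later window (-1.52, adjusted p = 0.0105). Reads there and in the array can come from other copies. The peaks inside PAN1, ANP1 and MRP4, genes of endocytosis, mannosyl transfer and the mitochondrial ribosome, had changes of -1.21, -1.17 and -1.10 (adjusted p = 0.031, 0.0314 and 0.039). The peak facing TSR4 beside a tRNA gene had -1.05 at adjusted p = 0.04996, and the next one, inside AUS1, missed the threshold at 0.05003 with -1.02.

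The deepest footprints outside the array lay close to chromosome ends, and the 6 with the most reads were not called. The one at 135 on chromosome XII (0.37, adjusted p = 0.159) was called in 3 of 22 alternative analyses, with a lowest adjusted p of 0.015. The strongest, 738 bp from YFL064C, held 189.0 normalised reads in G1, 164.0, 166.0 and 197.0 in the earlier and 211.0, 192.0 and 234.0 in the later window (log2 0.27, adjusted p = 0.327). The TG-repeat peak on chromosome VIII held 91.4 in G1, 122.0, 145.0 and 150.0 in the earlier and 150.0, 151.0 and 194.0 in the later window (0.25, adjusted p = 0.397). Scaled to the deep peaks these changes were -0.00 and -0.04. Among peaks near origins, that at the left tip of chromosome X rose from 85.2, 83.5 and 101.0 to 159.0, 139.0 and 140.0 (0.69, adjusted p = 0.00726), and that facing CUP1-2, a metallothionein gene with a tandem copy, from 96.2, 100.0 and 96.6 to 121.0, 158.0 and 176.0 (0.64, adjusted p = 0.0161).

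The SSDDCS libraries took no part in the test of the control windows. Their reads did enter the read minimum that made a peak deep. On its own that strain had 80 deep peaks called higher (1.39%) and 8 lower (0.139%), with a median of 0.18. Of the 288 peaks called higher in the control, 269 (93.4%) had a positive change in SSDDCS, as did 69.7% of all deep peaks, and 25 were called there too. Free of the shared shift, 238 of them (82.6%) lay above the SSDDCS median of all deep peaks, against 50.0% of all. Their median change in SSDDCS was 0.51. Promoters held 244 of the 288 peaks. In SSDDCS all promoter peaks had a median of 0.25 and the deepest group of peaks 0.24, both above 0.18. Whether the 82.6% exceeds the share in peaks matched for place and depth was not tested. Of the 8 peaks called lower, 7 had a negative change in SSDDCS, with a median of -0.30. A test of the difference between the strains' changes in edgeR called 0 peaks (0.0%), with 322 peaks at an unadjusted p under 0.05. No peak is therefore described as changing in the control strain alone.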

How the data were processed

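Sub-nucleosomal MNase-seq was analysed in 12 libraries of an sml1-delta control strain and 12 of the SSDDCS strain. The deposited values were unnormalised read counts, a column per library. According to the methods and processing notes the authors aligned reads to sacCer3 (Bowtie2 2.2.6, SAMtools 0.1.19), kept fragments under 100 bp, drew the same number of reads of each fragment length from all libraries, and called peaks on the merged libraries. Sampling equalises depth, so total amounts cannot be compared. The width of the counting window and whether positions count from 0 or 1 were not stated, and positions were used as deposited.

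Counts were tested with edgeR 4.0.16 (glmQLFit and glmQLFTest, two-sided, R 4.3.3) over 5775 peaks, with library sizes taken without chromosome XII 451000 to 491000 and no further factor. P-values were Benjamini-Hochberg adjusted over these peaks, with a threshold of 0.05. The fit was run on simulated independent counts with a common dispersion and no change inside a window. It called 46 of 100 peaks changed by 1.0 (log2), 81 of 100 changed by 1.5, and 4 unchanged peaks. Time points of a culture can differ from that setting, so the simulation does not test the p-values given here. Counting intervals are 95% and cover counting error only. Genes came from the RefSeq annotation of R64, the same build, which gives gene bounds without untranslated regions. The peaks named were the 12 with the smallest p in each direction, up to 2 per list and direction, the 6 deepest outside the rDNA array, and the loci SML1 and URA3; the STE2 and RPL20B peaks and the Rap1 splits were chosen after their values were seen. The peaks, windows, lists and motifs were chosen with earlier results of these data known. Alternatives were TMM factors, other totals, a local background offset, DESeq2 1.42.0, limma-voom 3.58.1, other read minimums, other windows and thresholds, and each library left out in turn.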

Additional observations from a re-analysis of the deposited data

How the results depend on the processing

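Against 288 peaks called higher and 8 lower, TMM factors gave 42 and 44, the total of the deep peaks 38 and 50, a local background offset 451 and 5, limma-voom 155 and 3, and DESeq2 1 and 11. DESeq2 with the totals without the rDNA array, added after the data were seen, gave 1 and 0. No filter on low counts gave 34 and 2, minimums of 120 and 480 reads 79 and 15 or 169 and 1, 40 min added to the later window 79 and 5, all 12 libraries in one fit 13 lower, and thresholds of 0.01 and 0.10 gave 60 and 2 or 529 and 29. Leaving out each control library in turn gave 33 to 647 higher and 0 to 19 lower. The median change of 0.26 became 0.000427 with TMM, 0.00239 with DESeq2, -0.0215 with the deep-peak total, 0.40 with the local offset, -0.0785 with no filter and -0.0434 at 120 reads. TMM, the default scaling of DESeq2 and deep-peak scaling remove a shared shift by construction. DESeq2 with the totals without the rDNA array gave a median of 0.26. For the other settings the cause was not tested. The summed level against G1 was -0.29 in the earlier window with the rDNA array in the total and -0.63 with the local offset, and in the later window 0.012 with the array in the total. The strain difference gave 1 call with time as a term and 0 to 2 when a library was left out. Among values under the alternatives of the 12 peaks with the smallest p-values in each direction and of the other peaks given with values, 758 kept direction and side of the threshold, 280 lost and 24 gained the call, and 5 changed sign, none of them called: -0.00490 at YFL064C with deep-peak scaling, -0.0148, -0.0368 and -0.0139 at the right end of chromosome VIII with TMM, deep-peak scaling and DESeq2, and 0.0521 at the HTA2 peak 139 bp from the start codon with the local offset. With a median of 15.0 reads per deep peak and library, single peaks can show only large changes. No paired analysis was possible because the windows of a strain share no time point. Between the strains, the term for time given above matches equal times.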

Other observations

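Other lists are given beside the median of 0.26 over all deep peaks, and beside the 4.99% of these and 6.46% of promoter peaks called higher. The 17 peaks facing ribosome biogenesis genes had 1 call higher (5.88%), 0 lower and a median log2 change of 0.36. That call was the peak facing RRP5, a pre-rRNA processing factor, which held 28.4 normalised reads in G1, 10.0, 14.6 and 14.9 in the earlier and 22.7, 21.6 and 34.5 in the later window (0.98, edgeR adjusted p = 0.034). In SSDDCS the same peak had 19.4, 13.6 and 23.7 and then 9.03, 14.3 and 18.6 (-0.43, adjusted p = 0.514), and the difference between the strains passed no test. The 13 peaks facing meiotic genes that Ume6 represses had 1 higher (7.69%), 0 lower and a median of 0.40. The call was RIM4 at 32.1, 29.1 and 35.3 and then 40.5, 56.2 and 61.8. The 13 peaks facing DNA damage response genes had 0 calls and a median of 0.36. The 39 peaks at snoRNA genes had 0 calls and a median of 0.16, the 4 at other genes of RNA polymerase III 0 calls and 0.09, and the 2 at centromeres 0 calls and 0.44. The calls at RRP5 and RIM4 were lost when scaled to the deep peaks.

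Inside coding sequence, the peak with the second smallest p-value lay in SRX1, the sulfiredoxin gene, and held 9.14 normalised reads in G1, 2.01, 3.88 and 7.43 in the earlier and 7.90, 25.3 and 16.2 in the later window, all later values above all earlier ones (log2 1.85 ± 0.41, SE, edgeR adjusted p = 0.00215). The libraries at 35 and 45 min both held 8 reads there before scaling, so those 2 values differ only through the scaling. In SSDDCS the windows overlapped, at 8.18, 6.78 and 8.52 and then 3.01, 15.3 and 18.6 (0.65, adjusted p = 0.394).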
